A study of Mus musculus with 6 samples.

Results

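The clustered protocadherin genes are 57 of the 21887 protein-coding genes of the mouse RefSeq annotation, lying side by side on chromosome 18 from 36930285 to 37841873 (GRCm38, the same coordinates as mm10). They were chosen by symbol and biotype, and comprise 14 Pcdha, 22 Pcdhb and 21 Pcdhg genes. A CTCF peak was counted to them when its midpoint lay inside a member gene or within 10 kb of one, a territory of 0.722 Mb in 6 pieces that is called the locus here. Of the 32988 peaks in the 4 lists, 8 lay in the locus. The lists come from chromatin immunoprecipitation and sequencing of CTCF in the mouse hepatoma line Hepa-1c1c7. There were 2 libraries from cells at 0 µM chromium, called untreated 1 and untreated 2, and 2 from cells given 25 µM chromium as potassium chromate, a hexavalent chromium salt, for 90 min before fixation, called chromium 1 and chromium 2. All groups share this line. Whether replicates were separate cultures is not in the labels, so p-values measure the spread between libraries, which may be technical. The lists held 1905 to 14881 peaks, of which 6.14% to 7.33% lay on chromosome 18, and the read depth behind them is not known. The 8 locus peaks were 4 of untreated 1, 1 of untreated 2 and 3 of chromium 1, and chromium 2 had 0. The files hold no expression values, so neither the identity of the cells nor the activity of the genes could be checked.

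Clustered protocadherins are cell adhesion proteins with cadherin repeats outside the cell, best known from neurons, where each cell uses its own small set of isoforms and so gains a surface identity. In the Pcdha and Pcdhg clusters a row of variable first exons, each with its own promoter, is spliced to constant exons that the whole cluster shares, while Pcdhb genes have no shared constant exons. CTCF is a zinc finger protein that, with the ring complex cohesin, brings distant DNA sites together, and it is known to bind at many of the variable promoters and at distal enhancers of these clusters in cells that use them. The series asks how chromium affects CTCF sites.

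The gene records show the same layout. The 14 Pcdha genes started at 14 positions between 36930285 and 37143678 but ended within 1240 bp of each other, and the 21 Pcdhg genes started between 37661775 and 37819546 and ended within 10 bp of each other. The 22 Pcdhb genes were separate and short, from 2340 to 5271 bp. Because the Pcdha and Pcdhg genes are nested, 1 peak can lie inside many of them, and a count of genes with a peak is not a count of separate events. The records give no strand, and the lower-coordinate end of a gene is called its start here because the clusters are known to be transcribed toward higher coordinates. The genes are paralogs with long stretches of similar sequence, and the sources used here do not say how reads matching several of them were placed.

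**Figure D1:**
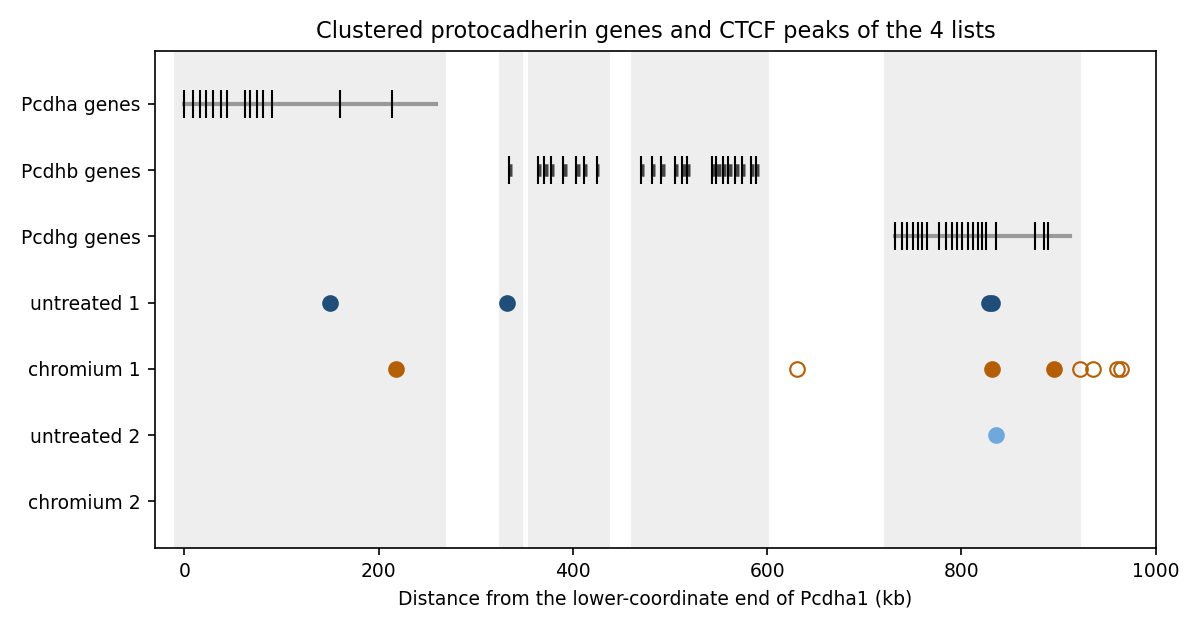
Positions along the clustered protocadherin genes, as distance in kb from the lower-coordinate end of Pcdha1. Black ticks are gene starts, grey lines the extent of the nested clusters, shaded bands the locus, filled circles the 8 peak midpoints inside it and open circles chromium 1 peaks outside it. Of the 8 peaks, 5 fall in the Pcdhg cluster and none in chromium 2.

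In the Pcdha cluster 2 peaks were called, 1 in each number 1 list. The untreated 1 peak (37079855 to 37080063, 209 bp) lay inside the nested genes Pcdha1 to Pcdha12, 10.2 kb before the start of Pcdhac1, the first of the 2 C-type isoforms of the cluster. Each peak carries a score, the authors' own value on an unstated scale, which is given here with its percentile, the rank among all peaks of the same list. This peak had a score of 5.04, at percentile 66.4. The chromium 1 peak (37148466 to 37148697, 232 bp, score 4.95, percentile 65.5) lay 68.6 kb farther on, inside all 14 Pcdha genes and 4.90 kb after the start of Pcdhac2. No list had a peak near the starts of Pcdha1 to Pcdha12. The gap that holds these 12 starts ran for 369.5 kb from a peak before the locus and was the 17th longest of the 2245 gaps between neighbouring peaks of any list on chromosome 18, whose median was 17.1 kb.

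In the Pcdhb cluster no list had a peak inside any of the 22 genes. The only peak within 10 kb of one was in untreated 1 (37261964 to 37262202, 239 bp, score 5.04, percentile 66.4), 2.92 kb before the start of Pcdhb1, the first gene of the cluster. From there to the next peak of any list, 298.9 kb away, lay all 22 Pcdhb genes, and this gap was the 27th longest on the chromosome. Among the 53 other protein-coding genes of chromosome 18 no longer than the longest Pcdhb gene, a peak within 10 kb was called for 18.9% and 5.66% in untreated 1 and 2 and for 28.3% and 3.77% in chromium 1 and 2. For the Pcdhb genes the counts were 1 and 0 of 22 in untreated 1 and 2 and 0 in both chromium lists. Over any list the counts were 1 of 22 against 23 of 53 (43.4%). Neighbouring Pcdhb genes share their surroundings, so this is a description and not a test.

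The Pcdhg cluster held the remaining 5 peaks. Of these, 4 lay within 7.54 kb (37758658 to 37766194), from 3 lists. The first was an untreated 1 peak (37758658 to 37758866, 209 bp, score 3.97, percentile 33.6), 2.99 kb after the start of Pcdhga11, the last A-type gene but one. The second was a chromium 1 peak (37761155 to 37761433, 279 bp, score 2.93, percentile 6.31), 507 bp before the start of Pcdhgb8. Pcdhgb8 is annotated as a transcribed pseudogene and is therefore not a member. The third was an untreated 1 peak (37761710 to 37761918, 209 bp, score 3.47, percentile 18.3), whose midpoint was 13 bp from the start of Pcdhgb8. The fourth was the only locus peak of untreated 2 (37765956 to 37766194, 239 bp, score 2.81, percentile 3.33), 495 bp after the start of Pcdhga12, the last A-type gene. The lists thus came close here without coinciding, since 276 bp separated the edges of the chromium 1 peak and the nearest untreated 1 peak, and 4037 bp separated that peak from the untreated 2 peak.

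**Figure D2:**
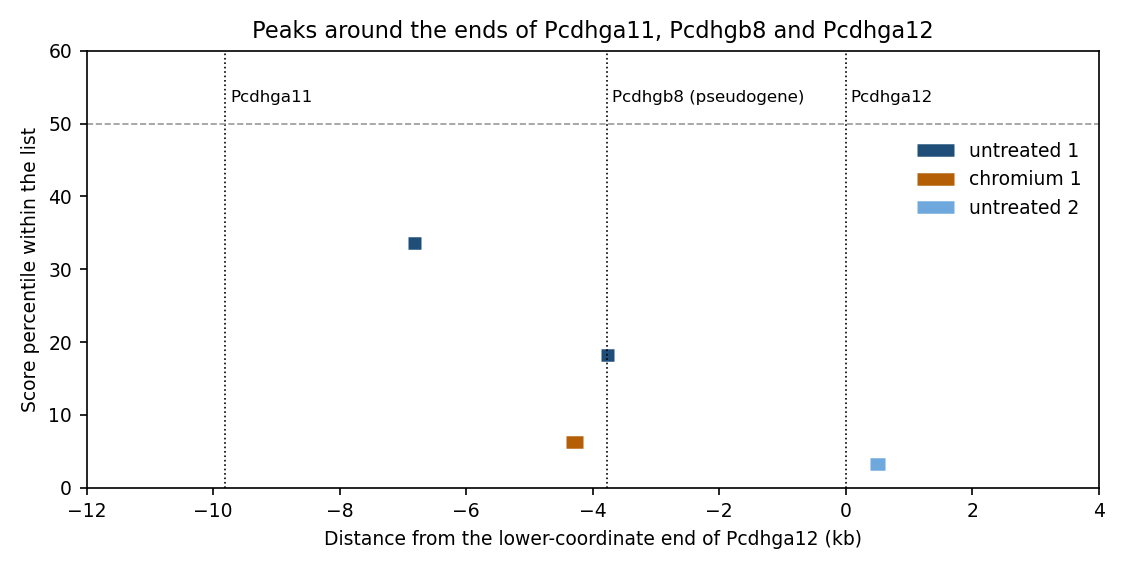
The 4 peaks near Pcdhga11, Pcdhgb8 and Pcdhga12, as distance in kb from the lower-coordinate end of Pcdhga12 against the score percentile within the peak's own list. Bars span each peak, dotted lines mark gene starts, and the dashed line marks percentile 50. All 4 peaks sit at percentiles 3.33 to 33.6.

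The 4 peaks of this stretch all scored below the middle of their list, and the other 4 locus peaks all scored above it, at percentiles 65.5 to 91.3. Such stretches were not rare on the chromosome. Peaks of 3 or 4 lists came together within the same length in 38 places on chromosome 18, of which 37 lay outside the locus. An untreated 2 peak with a peak of both number 1 lists within 5 kb was found in 28 of 286 cases (9.79%) on the rest of chromosome 18, and the Pcdhga12 peak was such a case. Within 10 kb, the window first set, it was 49 of 286 cases (17.1%).

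The fifth Pcdhg peak was in chromium 1 (37825710 to 37825958, 249 bp) and had the highest percentile in the locus, 91.3, with a score of 6.70. It lay inside all 21 Pcdhg genes, 6.29 kb after the start of Pcdhgc5, the last variable exon of the cluster, and 16.0 kb before the shared end. No peak of another list lay within 50 kb of it. The next chromium 1 peak (37852213 to 37852480, score 4.93, percentile 60.8) lay just outside the 10 kb limit, 10.5 kb past the end of the cluster in the neighbouring Diaph1, which encodes an actin-nucleating formin. The only peak in the gaps between the 6 pieces was also in chromium 1 (37560876 to 37561084, score 4.95, percentile 65.5), 39.6 kb past Pcdhb22.

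No locus site recurred. The 8 peaks formed 8 sites, and 0 of 8 were found in 2 or more lists, where the limit of 3 counts would be 37.5% and the exact Clopper-Pearson upper limit is 36.9%. Over all chromosomes 4.55% of 31285 sites were found in 2 or more lists, and 3.47% of 2159 on chromosome 18, so that a count of 0 among 8 is near the background and was not a detectable difference. The count was also 0 when peaks were matched by midpoints within 500 bp. That count hangs on the limit, since the chromium 1 and untreated 1 peaks at the start of Pcdhgb8 had midpoints 520 bp apart. Sites in both untreated lists and in neither chromium list numbered 0 in the locus, against 0.695% of sites on chromosome 18 and 0.633% in all, and sites of the opposite pattern also numbered 0, against 0.0463% and 0.0479%. The nearest recurrent sites lay well outside the clusters. One was in Slc4a9, a bicarbonate transporter gene, 400.3 kb before Pcdha1 (36529834 to 36530091, untreated 1 and chromium 1), and the next was in Rnf14, a ubiquitin ligase gene, 454.7 kb past the Pcdhg genes (38296410 to 38296729, chromium 1 and untreated 2).

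At gene ends, Pcdhga12 was the only member with a peak midpoint within 1 kb of its start or end, and it had it in untreated 2 alone. Of the 57 members 0, 0, 1 and 0 had such a peak in untreated 1, chromium 1, untreated 2 and chromium 2. Over all protein-coding genes the shares were 4.31%, 4.31%, 1.63% and 0.429% in the same order, and over the other genes of chromosome 18 they were 9.69%, 5.95%, 3.3% and 0.441%. With peaks at or above the median score of their list, the count was 0. By gene, without asking for a gene end, a peak inside or within 10 kb was called for 31, 35, 18 and 0 members in the same order of lists. Over the 454 other protein-coding genes of chromosome 18, among them the long records Gm37013, Gm38666 and Gm38667 that span much of the locus and hold its peaks, the shares of such genes were 54.6%, 57%, 25.6% and 11.9%, against 54.4%, 61.4%, 31.6% and 0% of members. The member shares rest on 8 peaks, since the Pcdhgc5 peak alone counts for 21 genes and the Pcdhac2 peak for 14.

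The locus was thinner in peaks than the rest of chromosome 18 in each of the 4 lists. The density was 5.54 peaks per Mb in untreated 1 (exact 95% Poisson interval 1.51 to 14.2) against 9.83 on the rest of the chromosome. In chromium 1 it was 4.15 (0.857 to 12.1) against 11.3. In untreated 2 it was 1.38 (0.0351 to 7.72) against 3.29, and in chromium 2 it was 0 (up to 5.11) against 1.35. In each list the interval of the locus held the density of the rest. At that density the locus would hold 7.10 and 2.38 peaks in untreated 1 and 2 and 8.16 and 0.973 in chromium 1 and 2. Over the 4 lists 8 peaks stood against 18.6 at the density of the rest, a ratio of 0.430 (exact 95% interval 0.186 to 0.847, counting error only). The difference, locus minus rest, was -3.67 ± 2.64 peaks per Mb (SD, n = 4), lower in 4 of 4 libraries (two-sided exact sign-flip permutation test, p = 0.125, which is the lowest value possible with 4 libraries). With every list cut to its 1905 strongest peaks the locus of chromium 1 was above the rest, by 0.14 peaks per Mb, and the other 3 lists had no locus peak.

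**Figure D3:**
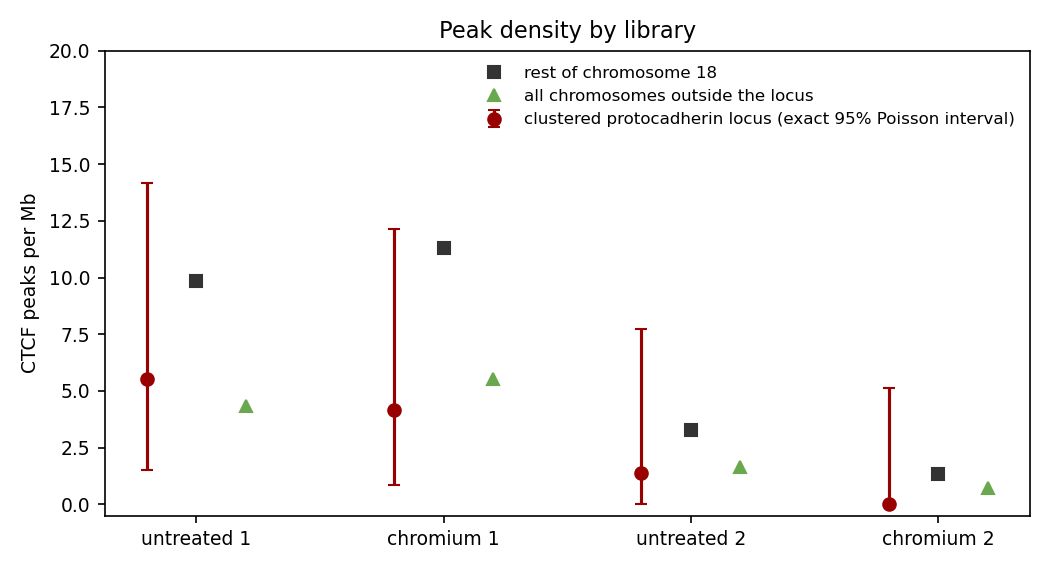
Peaks per Mb in each list for the locus (circles, with exact 95% Poisson intervals), the rest of chromosome 18 (squares) and all chromosomes outside the locus (triangles). The circle lies below the square in all 4 lists, and its interval reaches past both other marks.

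That difference depended on what the locus was set against. Chromosome 18 is rich in peaks, and against all chromosomes the locus density did not differ beyond the spread between libraries. The densities over all chromosomes outside the locus were 4.33, 5.51, 1.66 and 0.705 peaks per Mb in untreated 1, chromium 1, untreated 2 and chromium 2. The locus was above this in untreated 1 and below it in the other 3 lists, with a mean difference of -0.28 ± 1.09 (SD, n = 4, two-sided exact sign-flip permutation test, p = 0.625) and a ratio over the lists of 0.908 (0.392 to 1.79). The stretches before and after the locus also differed. The 5 Mb before it held 14.4, 15.0, 4.2 and 1.4 peaks per Mb in the same order, and the 5 Mb after it 4.8, 7.2, 1.4 and 0.2. In untreated 1 and 2 the locus values of 5.54 and 1.38 thus lay well below the stretch before and near the stretch after. In chromium 1 and 2 the locus values of 4.15 and 0 lay below both stretches. The value of 0.2 after the locus in chromium 2 rests on 1 peak.

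Windows as long as the whole gene span (931.6 kb), were also laid end to end over the chromosome. In untreated 1, chromium 1, untreated 2 and chromium 2 the span held 4, 4, 1 and 0 peaks. The medians of the other 92 windows were 7, 8.5, 2 and 1 in the same order, and the highest counts were 35, 37, 17 and 6. As few peaks as in the gene span, or fewer, were found in 33, 24, 40 and 34 of the 92 windows. Summed over the lists the span held 9 peaks, and 24 of 92 windows held no more. The window just before it held 35 and the window just after it 21.

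**Figure D4:**
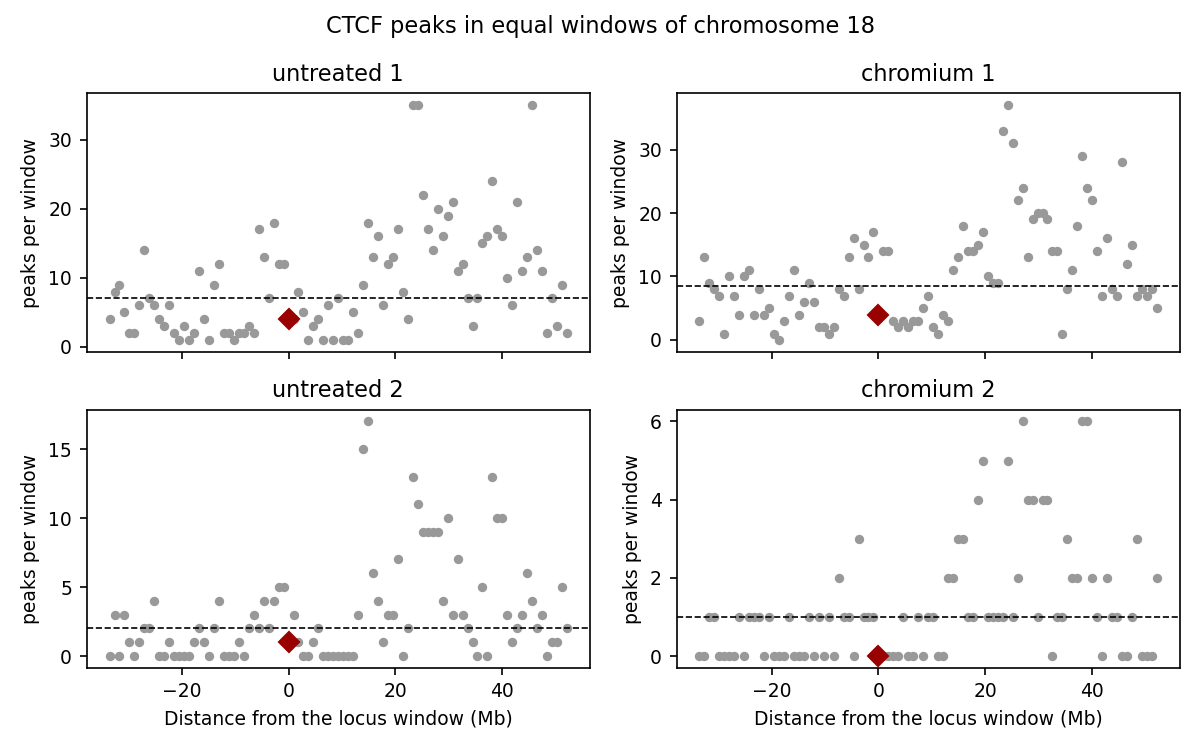
Peaks per window of 931.6 kb on chromosome 18 by list, against distance in Mb from the window of the protocadherin genes (red diamond). Grey circles are the other 92 windows and the dashed line their median. The diamond lies below the median in each list, within the spread of the other windows.

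Between untreated and chromium-treated cells the locus count differed by 1 peak between libraries of the same number, 4 against 3 for number 1 and 1 against 0 for number 2. Libraries of the same number share the input of their peak calls and have consecutive library codes in their titles. The labels do not say whether they were handled together. The untreated libraries averaged 2.5 ± 2.12 peaks (SD, n = 2) and the chromium libraries 1.5 ± 2.12 (SD, n = 2), a difference of -1 that was smaller than the spread between libraries of a group (two-sided exact permutation test, p = 0.667). As a share of the chromosome 18 peaks of each list, which allows for the length of the list, the locus held 0.466% in untreated 1 (4 of 858, exact Clopper-Pearson 95% interval 0.127 to 1.19) and 0.305% in chromium 1 (3 of 984, 0.0629 to 0.888). It held 0.348% in untreated 2 (1 of 287, 0.00882 to 1.93) and 0 of 117 in chromium 2, where 3 counts, the limit set for a count of 0, would be 2.56% and the exact upper limit is 3.10%. Both chromium shares lay below both untreated ones, a difference of -0.255 percentage points (two-sided exact permutation test, p = 0.333, which is the lowest value possible for 2 against 2 libraries), but all 4 intervals overlapped. The order turned when each list was cut to its 1905 strongest peaks, where 1 locus peak remained, in chromium 1, and the difference in share was 0.459 points. The median percentile of the locus peaks was 49.98 in untreated 1, 65.5 in chromium 1 and 3.33 in untreated 2, against 50.7, 49.6 and 49.3 on the rest of chromosome 18 (chromium minus mean untreated 38.9, given with no test because the chromium value is that of 1 library with 3 locus peaks, and between 15.6 and 62.2 with an untreated library left out).

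Other adhesion genes and the regulators of the clusters had peaks as follows, counted inside the gene or within 10 kb of it. Of 12 non-clustered protocadherins, which are encoded outside the clusters, 3 had a peak in any list, against 41.4% of all protein-coding genes. These were Pcdh15, a cadherin of inner ear hair cells, with 2 peaks in untreated 1 and 5 in chromium 1 over 1553.6 kb, Pcdh10, with 1 in chromium 1, and Pcdh12, with 1 in each number 1 list. Pcdh12, an endothelial protocadherin, and Pcdh1 lie beyond the Pcdhg genes on chromosome 18, and Pcdh1 had no peak in any list. Of 15 classical cadherins 12 had a peak. Cdh12, a neural cadherin of 1149.5 kb on chromosome 15, had 16 and 17 peaks in untreated 1 and 2 and 23 and 11 in chromium 1 and 2, the most of the list in each library. The classical cadherins with a peak numbered 8 and 7 in untreated 1 and 2 and 10 and 7 in chromium 1 and 2. These were 53.3% and 46.7% in the untreated lists and 66.7% and 46.7% in the chromium lists. Among all protein-coding genes the shares were 25.8% and 11.4% in untreated 1 and 2 and 28.6% and 4.86% in chromium 1 and 2. Cdh6, Cdh9, Cdh10, Cdh12 and Cdh18 lie on chromosome 15, and the peak density of that chromosome was not allowed for. Cdh1, E-cadherin, had 4 peaks in chromium 1 and 1 in chromium 2, and Cdh2, N-cadherin, had 1 in each. Both had 0 in the untreated lists. Cdh4, Cdh11 and Cdh20 each rested on 1 peak of 1 list. How many of all genes had peaks in only 1 group was not counted, and chromium 1 is the longest list. These counts therefore do not show a difference between the groups. Of 12 regulators 5 had a peak in any list (41.7%), which is the background level, since 41.4% of all protein-coding genes had one. The 5 were Setdb1, a histone H3K9 methyltransferase, Stag1, Rad21 and Nipbl of the cohesin machinery, and Smchd1, a chromosomal protein that represses the clusters. Nipbl was the only regulator with a peak in all 4 lists, and Ctcf itself had none. Nipbl and Rad21 also lie on chromosome 15, whose peak density was not allowed for here either. Gene length differs widely between these genes and was not allowed for.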

How the data were processed

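CTCF immunoprecipitates were sequenced from 2 untreated and 2 chromium libraries, and no values of the 2 inputs were used. The submitters' processing notes name Bowtie, MACS2 and mm10. Versions, thresholds and the handling of duplicates and of reads with several matches were not given in the sources used here. By the names of the deposited peaks, every library had its own call against the input with its number. Besides its position each deposited peak has a score from the authors' peak caller, of unstated scale, used only to rank or filter within a list. Start and end positions were the other deposited values. Each start was raised by 1 bp to give 1-based mm10 coordinates, on chromosomes 1 to 19, X and Y.

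Genes came from RefSeq records of GRCm38.p6. Chromosome lengths run from the first to the last gene. Peaks of different lists that overlapped by at least 1 bp were joined into sites. Groups were compared with exact permutation tests over libraries, shares with Clopper-Pearson and counts with Poisson intervals, which cover counting error only. Density was tested as a difference in place of the planned log2 ratio, which a list with 0 locus peaks does not allow. The members and lists were chosen with earlier results of these data known. The named items are members with a gene-end peak, recurrent locus sites and the 3 locus peaks of highest percentile per list; the remaining locus peak, the peaks just outside and the genes named among the non-clustered protocadherins, cadherins and regulators were named after their values were seen. Site merging was tested on simulated data. Python 3.11.15, numpy 2.4.6, pandas 2.3.3, scipy 1.17.1 and matplotlib 3.10.9 were used.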

Additional observations from a re-analysis of the deposited data

How the results depend on the processing

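The density difference between the locus and the rest of chromosome 18 stayed negative under every alternative tried for it, from -5.31 peaks per Mb against other protein-coding genes of the chromosome to -0.28 against all chromosomes, and from -4.45 to -2.52 with 1 library left out. The smallest p of the exact permutation tests was 0.125, so no alternative could pass 0.05. The chromium minus untreated count of locus peaks changed sign with a flank of 50 kb (1) and with lists of equal length (0.5), was 0 with peaks at or above the median score, and ran from -2.5 to 0.5 with 1 library left out. It was above 0 without untreated 1 and without chromium 2. The share difference changed sign with lists of equal length, to 0.459 points, was near 0 with a flank of 50 kb (-0.0516) and with peaks at or above the median score (-0.0347), and ran from -0.407 without chromium 1 to -0.102 without chromium 2. With the replicate block the mean differences were the same, -1 peak and -0.255 points (exact p = 0.5 for both), and the percentile difference of the number 1 libraries was 15.6. The share of recurrent locus sites was 0 throughout. Sites in all remaining untreated and no remaining chromium lists ran from 0 to 4 with 1 library left out, since without an untreated library a peak of the other one suffices. The count of members with a gene-end peak was 0 with peaks at or above the median score and with lists of equal length, 0 to 1 with 1 library left out (0 without untreated 2), and 2 with the pseudogene Pcdhgb8 counted as well, a choice made after seeing the data like the comparison with other genes of the chromosome. With 8 peaks in all, small differences in the locus are below what these lists can show.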

Other observations

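Pcdhgb8 was the only clustered protocadherin record of any biotype with a gene-end peak in lists of both groups. Its start lay 13 bp from an untreated 1 peak midpoint and 507 bp from a chromium 1 peak midpoint. It was left out of the counts above because it is annotated as a pseudogene, and it was singled out after its values were seen.

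Diaph1, which begins just past the shared end of the Pcdhg genes (37843601 to 37935622), held 4 chromium 1 peaks and no peak of the other 3 lists. Of the 110 protein-coding genes of chromosome 18 that are 50 to 150 kb long, clustered protocadherins left out, 10 had 4 or more chromium 1 peaks, the median was 1 and the highest was 6. How many of these genes had no peak in the other lists was not counted, so that absence cannot be called particular to Diaph1. Diaph1 was chosen after its values were seen.

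Over the whole of chromosome 18 the density was lower before the protocadherin genes than after them in each list. It was 6.37 against 12.1 peaks per Mb in untreated 1, 7.52 against 13.7 in chromium 1, 1.62 against 4.38 in untreated 2 and 0.649 against 1.80 in chromium 2. The locus densities of 5.54, 4.15, 1.38 and 0 peaks per Mb lay below both sides in each list, and nearer to the side before. In the 5 Mb on either side the order was the opposite, with the denser stretch before the genes.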
